A study of Homo sapiens with 6 samples.

Results

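The 10 genes described here encode enzymes that degrade the extracellular matrix, the receptor that brings plasminogen activation to the cell surface, and the inhibitors of these enzymes. They were taken by name from a table of 23368 genes and are MMP1, MMP2, MMP3, MMP14, PLAU, PLAUR, SERPINE2, TIMP1, TIMP2 and TIMP3. All 10 are in the table, 7 had enough reads for a test between groups, and 3 did not. Gene expression was measured by RNA sequencing in 1205Lu, an established line of human metastatic melanoma. One group of 3 libraries came from flasks transiently transfected with the plasmid pCMV6-SOX10, which overexpresses the transcription factor SOX10, and the other group of 3 from flasks given the control plasmid pCMV6. Both groups thus received 7.8 µg of plasmid DNA per flask and were harvested 24 h later. The transfection was transient, so the share of cells that took up a plasmid is not known from these data. The series names melanoma cell invasion in its title, and the comparison asks whether genes of the invasion machinery differed between cells given SOX10 and cells given the control plasmid.

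Matrix metalloproteases are zinc enzymes that are made as inactive precursors and cut collagens and other matrix proteins. MT1-MMP, the product of MMP14, sits in the cell membrane and, together with TIMP2, activates the precursor of MMP2, while the TIMP proteins block the active enzymes. Urokinase, the product of PLAU, binds its receptor PLAUR and turns plasminogen into plasmin, and serpins such as SERPINE2 (protease nexin-1) inhibit urokinase, tissue plasminogen activator and thrombin. Both systems are known for their part in the invasion of tumour cells through matrix.

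The libraries were shallow, and those of the SOX10 group were deeper, with 2544420 to 4167393 reads assigned to genes in the libraries labelled SOX10 and 867917 to 2066520 in the control libraries. SOX10 replicate 1 and control replicate 3 stood apart, with 93.5 and 97.0 reads outside genes per 100 assigned reads, against 121 to 135 in the other libraries. SOX10 itself had 21.7, 18.7 and 34.6 CPM (reads scaled to a common library total, with TMM factors) in the libraries labelled SOX10, against 16.6, 20.8 and 21.5 CPM in the control libraries. The groups overlapped, and the edgeR quasi-likelihood test gave a log2 fold change of 0.35 (SE 0.27, adjusted p = 0.927). The 95% interval of its fold ran from 0.869 to 1.87, so the counts of SOX10 did not show the overexpression that the label names. The groups are therefore called by their labels, and every direction below rests on those labels. Of 10 melanoma and melanocyte markers, 5 had enough reads for a test, namely S100B, SOX10, MITF, ERBB3 and CSPG4, whereas PMEL, MLANA, TYR, DCT and MIA did not. Markers of other cells that passed the read filter numbered 0 of 6 for leukocytes, 1 of 7 for keratinocytes, 2 of 5 for endothelium and 3 of 7 for fibroblasts. Over all genes, 10678 of 23368 passed the filter, so these counts alone do not identify the cells.

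None of the 7 tested members passed the test between groups at an adjusted p under 0.05. MMP2 had the smallest p of these 7 genes and was the only one of them whose groups did not overlap. Among all 10678 tested genes, 0.112% were called, and the 0 of 7 members called is close to that background. At an unadjusted p under 0.05 there was 1 member, against 6.23% of all tested genes. DESeq2 and limma-voom also called 0 members, each with 1 at an unadjusted p under 0.05. Groups that did not overlap were found for 11.8% of all tested genes. The median log2 fold change of the tested members was 0.06, beside 0.0076 for all tested genes. In bulk RNA, fewer cells of a type and less RNA per cell cannot be told apart.

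**Figure D1:**
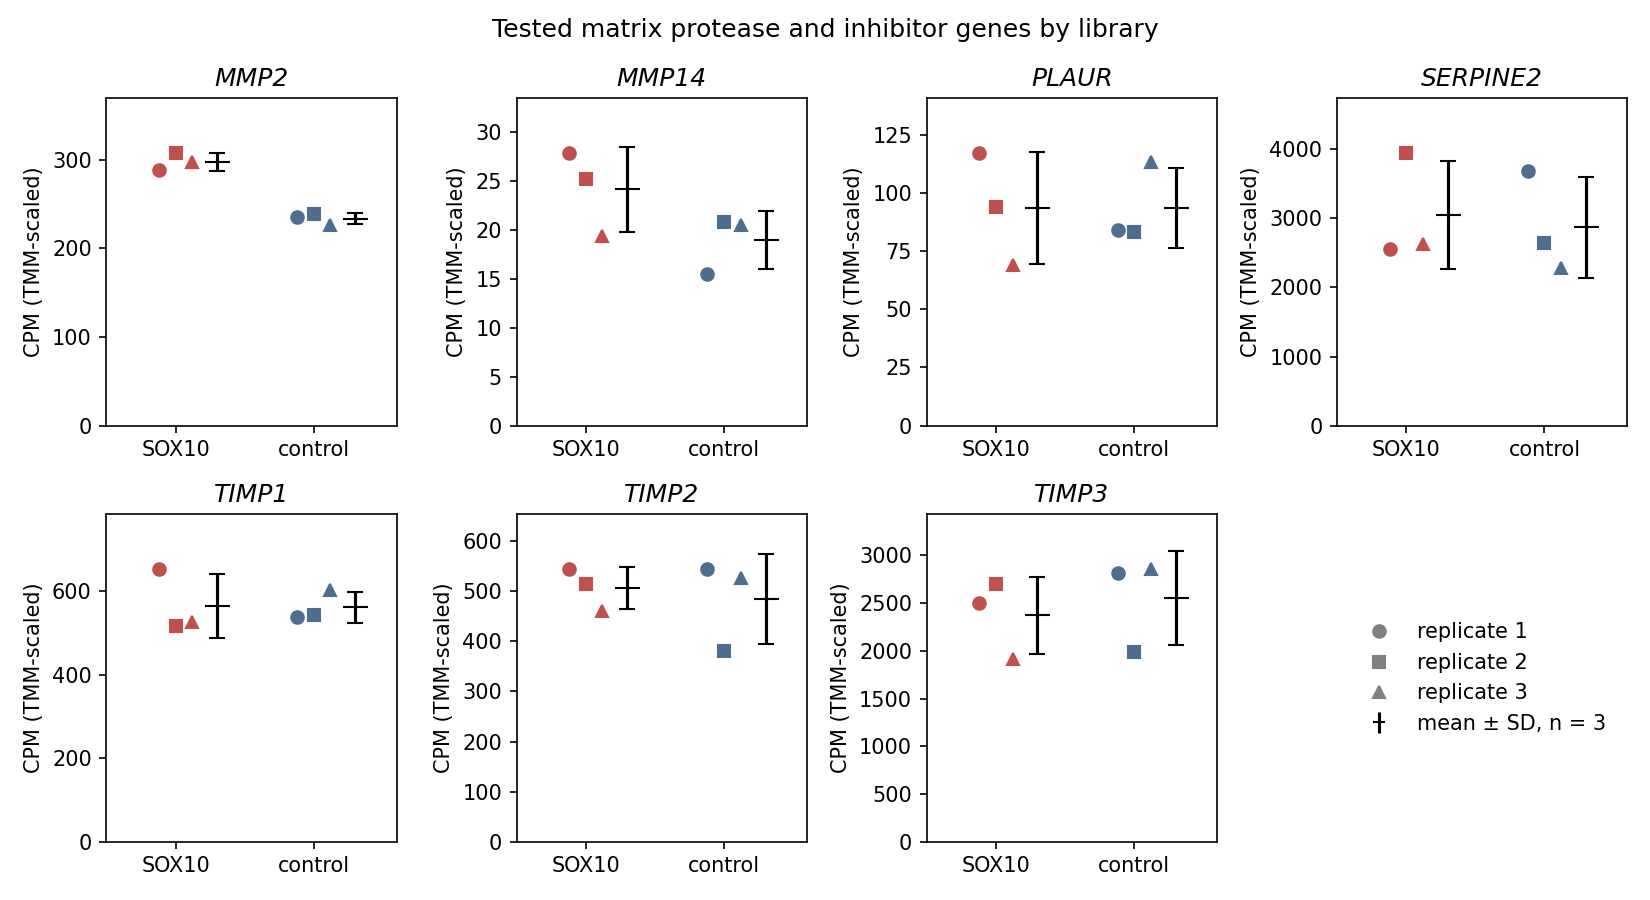
CPM, scaled by TMM (y axis), of the 7 tested members in each of the 3 libraries labelled SOX10 and 3 control libraries. Marker shapes give the replicate number, and the black bar is the mean ± SD (n = 3). The MMP2 points lie between 288 and 308 CPM in the libraries labelled SOX10 and between 226 and 239 CPM in the controls, while the points of the other genes overlap between groups.

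MMP2 encodes gelatinase A, which degrades type IV collagen of basement membranes and denatured collagen. It had 288, 308 and 297 CPM in the libraries labelled SOX10, against 236, 239 and 226 CPM in the control libraries. Every library labelled SOX10 lay above every control library, and the spread within each group was small next to the gap between them. The means were 298 ± 10.03 CPM in libraries labelled SOX10 and 234 ± 6.49 CPM in controls (SD, n = 3 each). By edgeR's quasi-likelihood test the log2 fold change was 0.35 (SE 0.10), or 1.28-fold with a 95% interval from 1.10 to 1.48. The unadjusted p was 0.00246, the 78th smallest of 10678, and the adjusted p was 0.337, so the gene was not called. The reads behind these values were 1075, 772 and 1228 in libraries labelled SOX10, against 213, 207 and 464 in controls. At such control counts, counting error alone would give a wider spread than the one seen. The small SD of the controls is therefore no measure of precision. In GENCODE release 29, MMP2 shares 3.67% of its exonic bases with AC007336.3 on the same strand, and reads there cannot be assigned to either gene by strand. In each of 17 other settings of the test the log2 fold change of MMP2 lay between 0.33 and 0.38 with an unadjusted p under 0.05, and in none was the gene called. Its lowest adjusted p was 0.0748, when the fit had the share of reads outside genes as a term, and its highest was 0.859, without control replicate 1.

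The 3 genes whose profile over the 6 libraries was closest to that of MMP2 were SEH1L, a nucleoporin, SURF4, a cargo receptor of the endoplasmic reticulum, and NAPG, a factor of membrane fusion. Closeness was the root mean square difference of centred log2 CPM over the 6 libraries, which was 0.040 for SEH1L, 0.049 for SURF4 and 0.053 for NAPG among 8670 candidate genes. SURF4 had 216, 248 and 227 CPM in libraries labelled SOX10 and 178, 196 and 180.4 CPM in controls. Their log2 fold changes ran from 0.32 for SURF4 to 0.40 for NAPG, and none was called, with adjusted p-values by edgeR of 0.526 to 0.862. Closeness was taken over both groups, so fold changes near that of MMP2 follow from how these genes were chosen.

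MMP14, the membrane-bound activator of MMP2, had 27.9, 25.1 and 19.4 CPM in the libraries labelled SOX10 and 15.5, 20.8 and 20.5 CPM in the control libraries. Controls 2 and 3 lay above SOX10 replicate 3, so the groups overlapped. The log2 fold change was 0.32 (SE 0.25), close to that of MMP2 in size but with an interval of the fold from 0.875 to 1.79 and an adjusted p of 0.927. This gene rested on 63 to 104 reads per library labelled SOX10 and 14 to 42 per control library. Leaving out SOX10 replicate 1 gave 0.19, and leaving out SOX10 replicate 3 gave 0.47.

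MMP1, the interstitial collagenase, MMP3, or stromelysin-1, and PLAU, the urokinase gene, were close to the limit of detection and were not tested. MMP1 had 1, 1 and 11 reads in libraries labelled SOX10, against 0, 0 and 10 in controls. Nearly all MMP1 reads were thus in the third library of each group. MMP3 had 3, 0 and 3 reads in libraries labelled SOX10, against 1, 1 and 0 in controls. PLAU had 1, 0 and 8 reads in libraries labelled SOX10 and 0, 2 and 1 in controls, and SOX10 replicate 3 held 8 of its 12 reads. A library with 0 reads allows up to 3 reads, which is 1.46 to 3.46 CPM in the controls. It is 1.197 CPM in SOX10 replicate 2, the only library labelled SOX10 in which any of these genes had 0 reads. Summed over each group, MMP1 stood at 1.24 CPM of assigned reads (exact 95% binomial interval 0.663 to 2.13) in libraries labelled SOX10 and 2.59 (1.24 to 4.76) in controls. For MMP3 these sums gave 0.574 (0.211 to 1.25) in libraries labelled SOX10 and 0.518 (0.0627 to 1.87) in controls. PLAU had 0.862 (0.394 to 1.64) in libraries labelled SOX10 and 0.777 (0.160 to 2.27) in controls. The intervals of the 2 groups overlapped for each gene. They cover counting error only and leave out the differences between libraries. In GENCODE release 29, 28.7% of the exonic bases of PLAU lie opposite to exons of C10orf55 and 7.61% of those of MMP1 opposite to WTAPP1. Whether reads were counted by strand is not stated by the labels, so the few PLAU and MMP1 reads are uncertain to that extent.

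**Figure D2:**
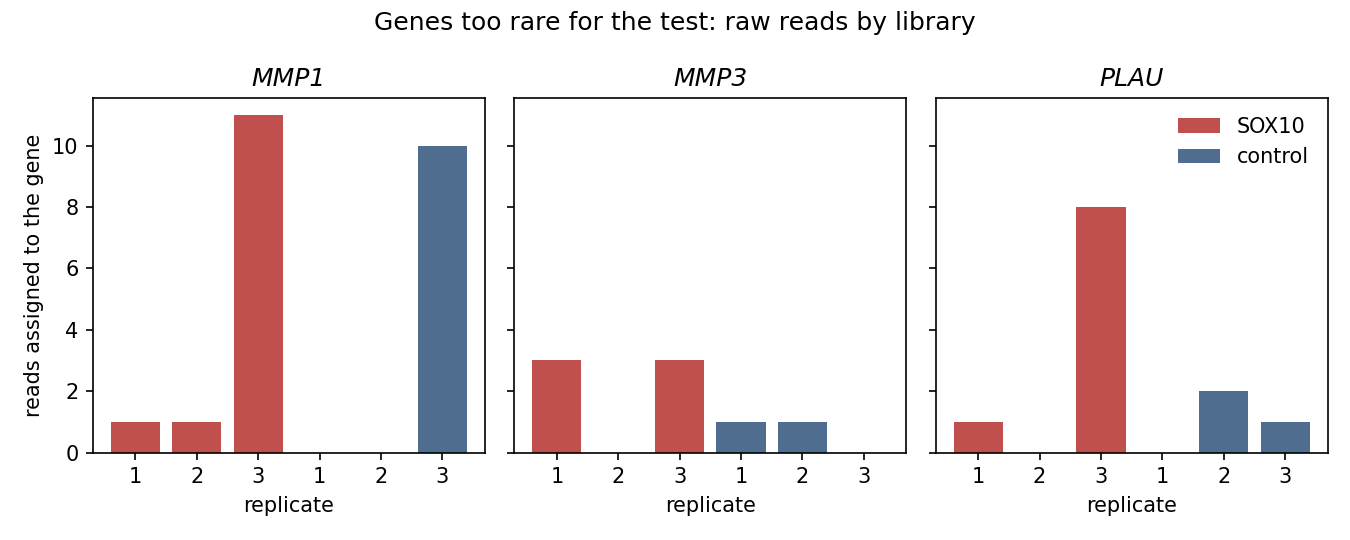
Raw reads assigned to MMP1, MMP3 and PLAU (y axis, whole reads) in the 3 libraries labelled SOX10 (red) and 3 control libraries (blue), by replicate number (x axis). Replicate 3 of each group holds 11 and 10 of the MMP1 reads, and no bar of MMP3 is above 3 reads.

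PLAUR, the urokinase receptor, was expressed although its ligand was hardly detected. It had 117, 94.1 and 69.0 CPM in the libraries labelled SOX10, against 84.0, 83.0 and 113 CPM in the control libraries. The highest values were those of SOX10 replicate 1 and control replicate 3, which are also the libraries with the fewest reads outside genes. The means were 93.5 ± 24.1 CPM in libraries labelled SOX10 and 93.4 ± 17.1 CPM in controls (SD, n = 3 each). The log2 fold change of PLAUR was -0.04 (SE 0.17), the interval of the fold ran from 0.760 to 1.25, and the adjusted p was 0.991. The estimate turned positive when SOX10 replicate 3 (0.15) or control replicate 3 (0.16) was left out, and it was -0.25 when SOX10 replicate 1 was left out.

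PLAT, which encodes tissue plasminogen activator and was named after its values were seen, was the abundant plasminogen activator of these cells. It had 7984, 5486 and 3749 CPM in the libraries labelled SOX10 and 5379, 3535 and 7638 CPM in the controls. The order of the replicates within each group was that of PLAUR, with SOX10 replicate 1 and control replicate 3 highest. The log2 fold change of PLAT was 0.05 (SE 0.20, adjusted p = 0.987). With the share of reads outside genes as a term in the fit, the log2 fold change of PLAUR was -0.10 (SE 0.14). The part of those reads in the spread of PLAT was not tested.

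SERPINE2 was the most abundant member by the mean of each group, though not in control replicate 3, and showed another order of the libraries. It had 2560.1, 3949.9 and 2626 CPM in the libraries labelled SOX10, against 3681, 2645 and 2282 CPM in the controls. SOX10 replicate 2 and control replicate 1 were high, and SOX10 replicate 1 and control replicate 3 were the lowest of their groups. The means were 3045 ± 784 CPM in libraries labelled SOX10 and 2869 ± 726 CPM in controls (SD, n = 3 each). The log2 fold change was 0.09 (SE 0.15), with an interval of the fold from 0.862 to 1.31 and an adjusted p of 0.959. SERPINE2 rested on 2293 to 10843 reads per library. Leaving out SOX10 replicate 2 gave -0.14, and leaving out control replicate 1 gave 0.31 with an unadjusted p of 0.0459.

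The TIMP genes were abundant, and their groups overlapped. TIMP1, a secreted inhibitor of most metalloproteases, had 653, 517 and 525 CPM in libraries labelled SOX10, against 537, 542 and 603 CPM in controls. Its highest values were again in SOX10 replicate 1 and control replicate 3, and the log2 fold change was 0.01 (SE 0.11, adjusted p = 0.998). TIMP2, which both inhibits metalloproteases and takes part in the activation of MMP2, had 544, 514 and 461 CPM in libraries labelled SOX10 and 544, 381 and 527 CPM in controls. Control replicate 2 was the low library, and the log2 fold change was 0.06 (SE 0.12, adjusted p = 0.963). TIMP3, an inhibitor that stays bound to the matrix and also blocks sheddases of the ADAM family, had 2499.5, 2696 and 1921 CPM in libraries labelled SOX10 and 2815, 1990 and 2859 CPM in controls. SOX10 replicate 3 and control replicate 2 were low for TIMP3, as they were for TIMP2. The log2 fold change of TIMP3 was -0.11 (SE 0.12, adjusted p = 0.933), and without control replicate 2 it was -0.26 with an unadjusted p of 0.0297. The intervals of the folds were 0.864 to 1.17 for TIMP1, 0.881 to 1.23 for TIMP2 and 0.778 to 1.10 for TIMP3. A change beyond these limits in either direction lay outside the 95% intervals. TIMP1 and TIMP3 lie within introns of SYN1 and SYN3 on the opposite strand and share no exonic base with them in GENCODE release 29, while 9.01% of the exonic bases of TIMP2 lie opposite to the antisense gene AC022966.1.

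The ratio of MMP2 reads to TIMP2 reads, an enzyme and an inhibitor that bind each other, was 0.529, 0.599 and 0.645 in libraries labelled SOX10 and 0.433, 0.627 and 0.429 in control libraries. Control replicate 2 lay within the range of the libraries labelled SOX10 and was the library with the lowest TIMP2 level. The ratio of MMP14 to TIMP2 reads was 0.0512, 0.0489 and 0.0420 in libraries labelled SOX10 and 0.0285, 0.0545 and 0.0389 in controls, and these groups overlapped too.

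Per length of exon, the inhibitors among the members stood above the proteases among them. Levels were compared as CPM per kilobase of exon, with the exon lengths of GENCODE release 29. In libraries labelled SOX10 SERPINE2 averaged 967 ± 249, TIMP3 515 ± 87.6, TIMP1 387 ± 52.3 and TIMP2 124 ± 10.4 CPM per kilobase (SD, n = 3). In controls SERPINE2 averaged 911 ± 231, TIMP3 555 ± 106, TIMP1 384 ± 25.2 and TIMP2 119 ± 22.0 CPM per kilobase (SD, n = 3). MMP2 averaged 62.8 ± 2.12 CPM per kilobase in libraries labelled SOX10 and 49.3 ± 1.37 in controls (SD, n = 3 each). PLAUR stood at 42.5 ± 10.97 CPM per kilobase in libraries labelled SOX10 and 42.5 ± 7.77 in controls, and MMP14 at 6.46 ± 1.16 in libraries labelled SOX10 and 5.07 ± 0.80 in controls (SD, n = 3 each). MMP1, MMP3 and PLAU averaged under 1 CPM per kilobase in both groups, and their ranges overlapped with one another. Neighbours in this order did not overlap in either group, apart from TIMP3 and TIMP1 in the libraries labelled SOX10, MMP2 and PLAUR in the controls, and the 3 rare genes in both groups. PLAT, at 2081 ± 772 CPM per kilobase in libraries labelled SOX10 and 2001 ± 745 in controls (SD, n = 3 each), was above every member in its mean. Lengths come from a later annotation than the counts, so the order is approximate where levels are close.

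**Figure D3:**
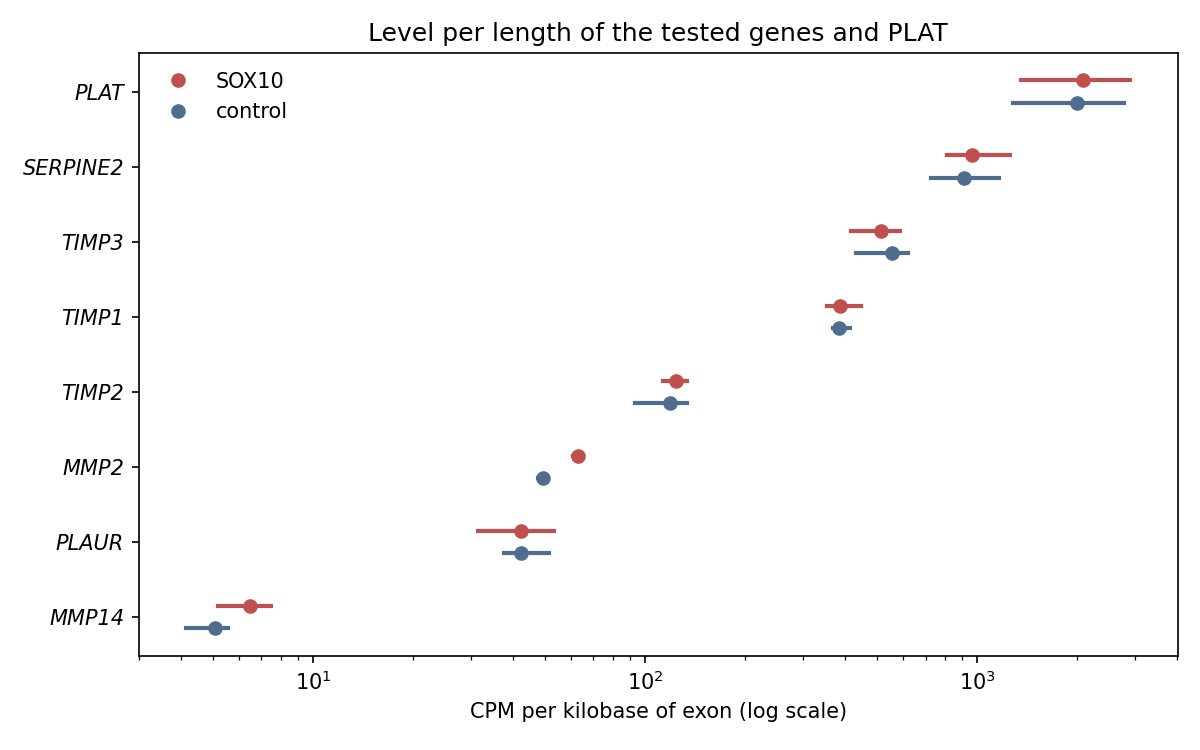
Level of the 7 tested members and PLAT as CPM per kilobase of exon (x axis, log scale). Points are the means of 3 libraries and lines run from the lowest to the highest library, red for SOX10 and blue for control; inhibitors from SERPINE2 to TIMP2 lie above MMP2, PLAUR and MMP14.

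The stretch before the start of a gene is where transcription factors such as SOX10 can act, and the RefSeq table used here (GRCh38.p14) was matched for 6 of the 10 members, with 8 windows in all. MMP1, MMP2, MMP3 and TIMP2 were not matched. The 250 bases before the start were searched on both strands for short words, chosen after the windows had been read. ACAAAG or ACAATG, words that SOX proteins can bind, occurred in 21.2% of 35116 windows of all genes. Among the members they occurred in both windows of PLAU and in none of the windows of MMP14, PLAUR, SERPINE2, TIMP1 and TIMP3. The word TGAGTCA of AP-1, the dimer of JUN and FOS proteins, occurred in 4.20% of all windows and among the members in that of PLAUR. TCACATG or TCACGTG, E-box words that MITF and its relatives can bind, occurred in 6.09% of all windows. Among the members they were in 1 of the 2 windows of SERPINE2, with 6 matches, and 0.0171% of all windows held as many. That share counts this window too, and the words were chosen after it was read, so it is a description only. The matches lie in a stretch of letters that repeats within the window. A match describes letters and not binding, and gene counts do not show which start was used. Printed below is 1 of the 2 windows of PLAU, with the SOX word in capitals as read on the other strand. The other window of PLAU, which also holds the word, is not printed. The window of PLAUR follows, with the AP-1 word in capitals. Last is the window of SERPINE2 that holds the E-box words, in capitals. The printed windows lie at chr10:73910360-73910609 on the plus strand, chr19:43670170-43670419 on the minus strand and chr2:224031479-224031728 on the minus strand.
PLAU: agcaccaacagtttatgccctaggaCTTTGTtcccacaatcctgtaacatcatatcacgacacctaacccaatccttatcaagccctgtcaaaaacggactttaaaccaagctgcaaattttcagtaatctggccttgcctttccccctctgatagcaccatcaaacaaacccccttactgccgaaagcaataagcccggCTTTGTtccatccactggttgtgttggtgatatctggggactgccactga
PLAUR: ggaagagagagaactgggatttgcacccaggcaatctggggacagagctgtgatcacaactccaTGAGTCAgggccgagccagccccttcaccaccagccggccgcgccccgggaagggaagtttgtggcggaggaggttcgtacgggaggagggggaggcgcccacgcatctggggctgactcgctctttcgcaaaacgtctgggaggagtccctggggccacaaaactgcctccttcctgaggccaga
SERPINE2: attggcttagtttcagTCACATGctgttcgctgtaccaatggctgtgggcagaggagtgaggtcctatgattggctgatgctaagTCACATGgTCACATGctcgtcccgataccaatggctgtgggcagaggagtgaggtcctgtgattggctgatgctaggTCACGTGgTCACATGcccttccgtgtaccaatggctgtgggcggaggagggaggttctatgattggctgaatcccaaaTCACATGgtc

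The rest of the protease network was read from 6 lists of 78 genes in all, of which 50 were tested. None of the 50 passed the edgeR test over all genes, and the median log2 fold change was -0.00034. At an unadjusted p under 0.05, 3 were higher and 5 lower in libraries labelled SOX10, beside 2.71% and 3.52% of all tested genes. Without overlap between groups were 2 genes higher and 2 lower in libraries labelled SOX10, beside 5.72% and 6.03% of all tested genes.

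Only 3 of 19 other matrix metalloproteases had enough reads, and all were membrane-bound enzymes with a positive log2 fold change. MMP16, which encodes MT3-MMP, had 63.5, 73.4 and 71.7 CPM in libraries labelled SOX10, against 46.4, 57.7 and 38.0 CPM in controls. The groups did not overlap, and the log2 fold change was 0.60 (SE 0.17), the unadjusted p 0.00229 and the adjusted p 0.333. MMP15, or MT2-MMP, had 0.58 (SE 0.30, adjusted p = 0.839) and groups that overlapped. The gelatinase gene MMP9, named after its values were seen, had 3 reads over all 6 libraries.

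Of 6 tested genes among the other plasminogen system genes, none had an unadjusted p under 0.05 by edgeR, beside 6.23% of all tested genes. LRP1, an endocytic receptor that clears protease and inhibitor complexes, had 133, 128 and 109 CPM in libraries labelled SOX10 and 126, 104 and 112 CPM in controls, with a log2 fold change of 0.11 (SE 0.13). Among 8 tested genes of the other inhibitors, TFPI2, a matrix-bound inhibitor of plasmin, had 60.0, 63.0 and 40.2 CPM in libraries labelled SOX10 and 94.0, 50.8 and 84.4 CPM in controls. Control replicate 2 lay within the range of the libraries labelled SOX10, and the log2 fold change was -0.52 (SE 0.20, adjusted p = 0.644). RECK, a membrane-anchored inhibitor of metalloproteases, had -0.24 (SE 0.22, adjusted p = 0.932).

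Of 10 tested ADAM and ADAMTS genes 1 had an unadjusted p under 0.05. This was ADAMTS6, with a log2 fold change of 0.58 (SE 0.26), an adjusted p of 0.766 and a high value in SOX10 replicate 3, at 56.2 CPM beside 31.3 and 31.9 CPM in the other libraries labelled SOX10. ADAMTS12 had a log2 fold change of -0.43 (SE 0.33). Among 11 tested cathepsins, CTSL2, or cathepsin V, had 0.88 (SE 0.40, adjusted p = 0.766). Its levels were 12.3, 14.8 and 13.3 CPM in libraries labelled SOX10 and 9.95, 11.5 and 3.41 CPM in controls. These rest on 46, 37 and 55 reads in the deeper libraries labelled SOX10 and 9, 10 and 7 in controls. Control replicate 3, with 7 reads, was the low library. CTSC, which activates serine proteases of leukocyte granules, had 0.23 (SE 0.11, adjusted p = 0.815).

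Activators and inducers of proteases had the lowest median log2 fold change of the lists, -0.19, with 0 of 12 genes called. At an unadjusted p under 0.05 by edgeR, 4 were lower in libraries labelled SOX10, beside 3.52% of all tested genes. These 4 encode transcription factors, namely JUNB, JUN, FOSL1 (-0.37) and ETS1 (-0.26). The others had an unadjusted p above 0.05. Among them, FOS, FOSL2 and ETS2 had log2 fold changes of 0.01, -0.28 and -0.10. Those of FURIN, PCSK5, PCSK6, PCSK7 and BSG ran from -0.39 for PCSK7 to 0.12 for FURIN. In this list, genes other than JUNB and JUN were named after their values were seen. JUNB, an AP-1 subunit, had 42.8, 33.5 and 27.6 CPM in libraries labelled SOX10, against 49.8, 48.4 and 75.1 CPM in controls. Its groups did not overlap, and the log2 fold change was -0.79 (SE 0.21, adjusted p = 0.245). JUN had 58.4, 49.1 and 40.0 CPM in libraries labelled SOX10 and 67.4, 78.4 and 76.1 CPM in controls, again without overlap, with a log2 fold change of -0.60 (SE 0.17, adjusted p = 0.305). PLAUR, whose window holds the AP-1 word, had -0.04 (SE 0.17). A link between that word and the level of PLAUR was not tested.

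**Figure D4:**
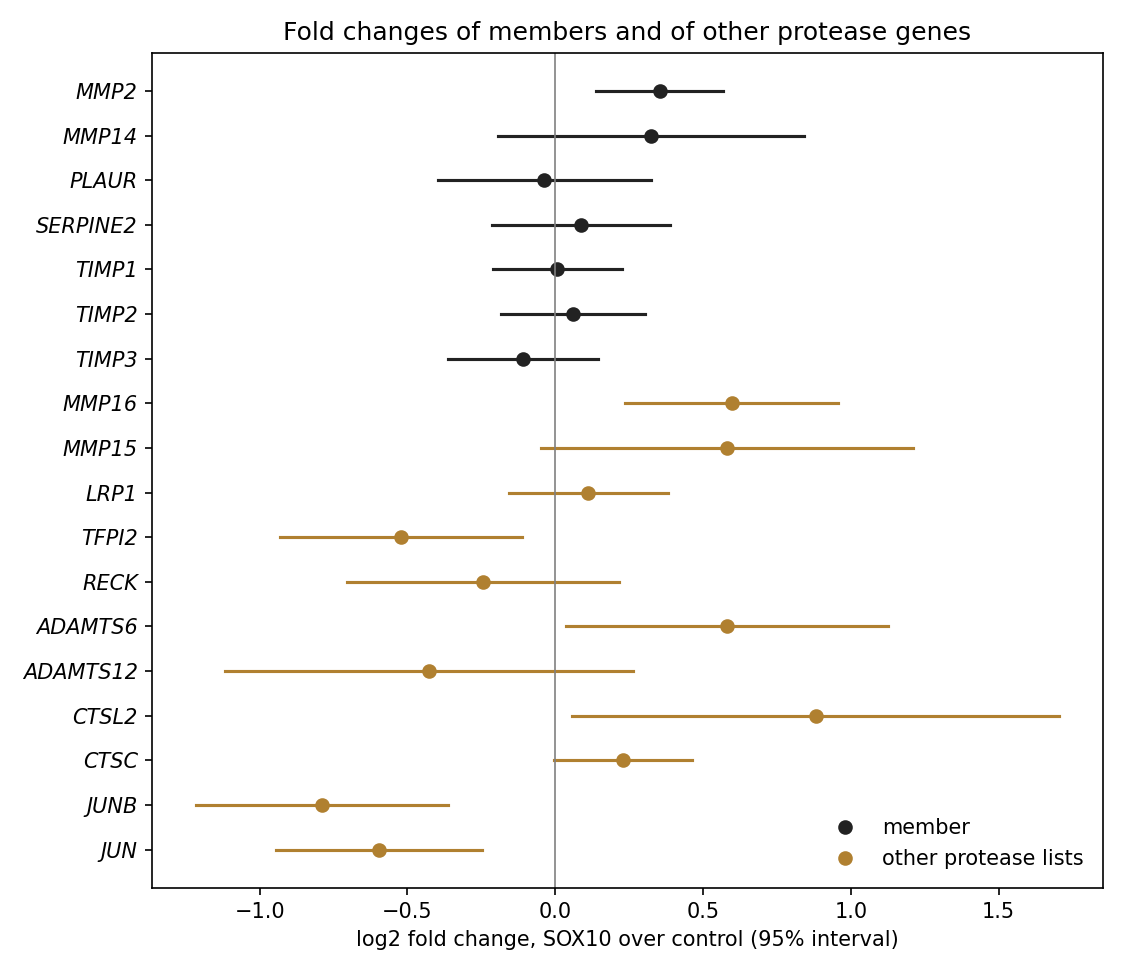
Log2 fold change of SOX10 over control (x axis) with its 95% interval for the 7 tested members (black) and for 11 other genes (brown). The 11 genes are the 2 tested genes of smallest p within each of the 6 other lists, with 1 left out. Among the members the interval of MMP2 alone lies above 0, and none of the genes shown was called after adjustment over all tested genes.

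The estimates of members differed in how much single libraries moved them. Leaving out each library in turn, the log2 fold change of MMP2 stayed between 0.33 and 0.38, and that of MMP14 between 0.19 and 0.47. For PLAUR it ran from -0.25 to 0.16, for SERPINE2 from -0.14 to 0.31, for TIMP1 from -0.11 to 0.07, for TIMP2 from -0.08 to 0.15 and for TIMP3 from -0.26 to 0.02. These 5 genes thus had estimates of both signs.

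**Figure D5:**
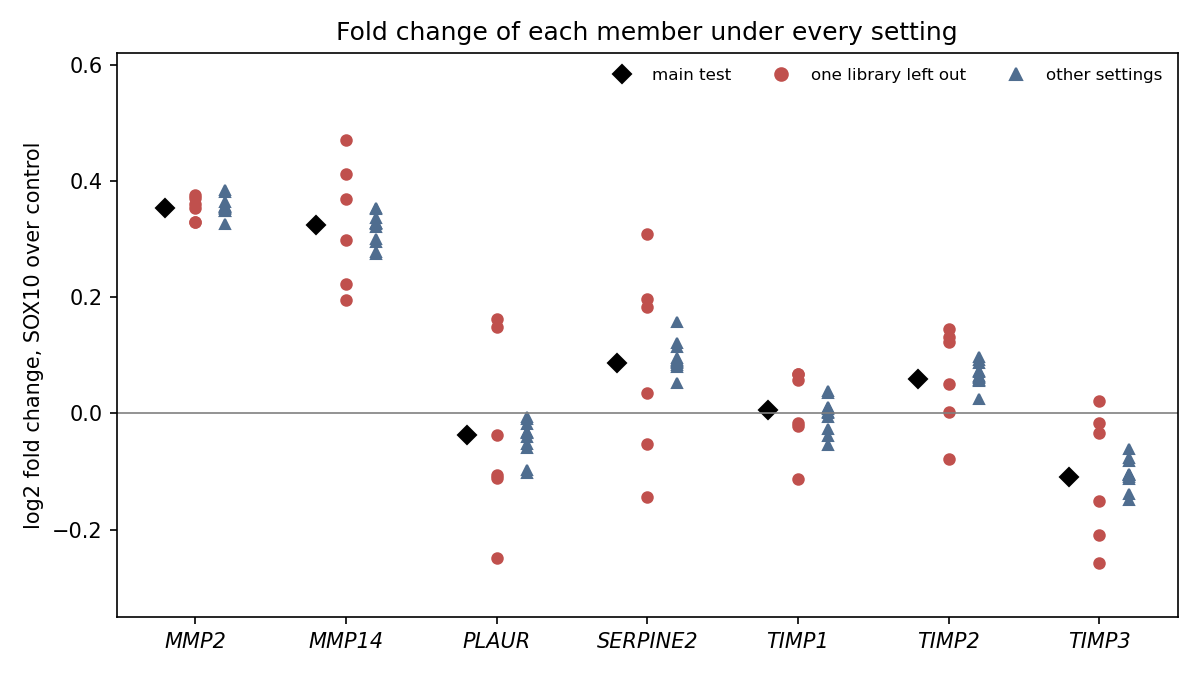
Log2 fold change of SOX10 over control (y axis) for each tested member under the main test (black), with 1 library left out (red) and under the other settings (blue). The MMP2 points lie between 0.33 and 0.38, whereas those of PLAUR, SERPINE2, TIMP1, TIMP2 and TIMP3 fall on both sides of 0.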

How the data were processed

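Each of the 6 libraries of 1205Lu cells was prepared, per the labels' protocols, with the NuGEN Encore Complete system and 125 ng of total RNA. TopHat 1.4.0, HTSeq and DESeq, with genome build hg19, appear in the submitters' processing notes. The authors deposited raw read counts, in whole numbers, for each gene symbol. For the annotation, and for how the counting treated strands and overlapping genes, nothing was stated (not given in the sources used here). At its end, the table has 5 rows that name no gene and entered neither library sizes nor tests. Reads outside genes were 39.4% to 46.9% of all counted records, those placed more than once 17.7% to 19.1% and ambiguous ones 0.435% to 0.551%. The 2 other rows hold 0.

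Columns were matched to samples by title and groups taken from the treatment label. Replicates of a group differed beyond sampling noise in every pair (chi-square per degree of freedom 1.98 to 7.44). The series' design text calls the replicates biological.

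Groups were compared in R 4.3.3 with edgeR 4.0.16 and its quasi-likelihood test. The fit took all 6 libraries, scaled by TMM, had no covariate, and kept genes that passed filterByExpr at a minimum count of 10 and a minimum total of 15. P-values are two-sided, Benjamini-Hochberg adjustment ran over the 10678 genes kept, and genes under 0.05 were called. Log2 fold changes are SOX10 over control. Standard errors derive from the F statistic and intervals from 22.9 degrees of freedom. The summed levels of rare genes have exact Clopper-Pearson intervals. Intervals and floors of 3 reads cover counting error only. The test was tried on simulated data first. Alternatives were other scalings, other filters, DESeq2 1.42.0, limma-voom (limma 3.58.1), the replicate number as a block, thinning to equal depth, the log2 ratio of reads outside genes to assigned reads as a covariate, and leaving out libraries.

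The members, the gene lists and the alternatives were chosen with earlier results of these data known. Named genes are the 10 members, SOX10, the melanoma and melanocyte markers, from each other list the 2 tested genes of smallest p, and the 3 genes of at least 10 CPM on average most alike to the member with the smallest p. Of the genes named by this rule, 1 is left out of the text. Genes named outside this rule, after their values were seen, are marked so in the text. Log2 CPM for that comparison had a prior count of 2.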

Additional observations from a re-analysis of the deposited data

How the results depend on the processing

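The count of 0 called members held in all 17 alternatives, and 0 genes of the other protease lists were called in 15 of them. JUNB was called as lower in the libraries labelled SOX10 in the fits without a low-count filter and with reads outside genes as a covariate, where those lists had 1 call each. Over all genes 12 were called, and this count was 48 with no filter, 43 with reads outside genes as a covariate, 7 with SOX10 replicate 1 and control replicate 3 both left out, and 6 to 18 without any one library. With the replicate number as a block 7 genes were called. In that fit MMP2 had a log2 fold change of 0.35 and an adjusted p of 0.831, and 0 members were called. The labels do not say that replicate numbers pair samples, so the main fit did not take them as pairs. Same-numbered libraries had correlations of -0.030, -0.033 and -0.14 between their deviations from the group means. Libraries of different numbers had correlations from -0.10 to 0.15.

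Depth limits MMP1, MMP3 and PLAU most, since a read was worth 0.242 to 1.15 CPM. In the fit without a filter their log2 fold changes had standard errors of 0.96, 1.93 and 1.64. The median standard error over all tested genes was 0.23 on the log2 scale. MMP2 after thinning to the smallest library had a log2 fold change of 0.33 with an unadjusted p of 0.00957.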
